A study of Helianthus annuus with 6 samples.

Results

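In cultivated sunflower (Helianthus annuus), 91 RefSeq genes were strong in petioles of the line 20G and left only a trace in petioles of the line 19G. They were selected on their own expression values from 57126 RefSeq genes among 70842 loci. A gene was kept at 3 FPKM or more in every 20G library, at 0.5 FPKM or less in every 19G library, and above 0 in at least 1 of the 19G libraries. FPKM, the deposited unit, is a level in sequenced fragments, scaled to transcript length and to all fragments mapped in a library. The 100 loci with the highest mean FPKM over all libraries were to be left out, and 0 genes that met the other conditions were among them. The difference between the lines is therefore how the genes were chosen, and it is given as a description with no test.

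The libraries were made from bulk petiole RNA of the inbred line 20G, described as leaf compact with petioles at a small inclination angle, and of the inbred line 19G, described as leaf flat with petioles at a large angle. The labels class the libraries as single cell, but each file holds a single column of values for 1 petiole sample. Each line had 3 libraries, and the labels give no treatment with an agent, no age and no growth stage. Whether the 3 libraries of each line stem from different plants is not stated, and the p-values therefore cover library-to-library spread that may be only technical. Petiole form and line coincide, so a difference tied to leaf angle and any other difference between the lines cannot be told apart. In bulk tissue, fewer cells of a type and less RNA per cell cannot be told apart either. The sources used here pair the identifiers with no gene product, so no function is given for any gene, and the tissue could not be checked against marker genes.

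A petiole is the stalk that carries the leaf blade, and the angle between it and the stem sets how upright the leaves of a plant stand. Inbred lines of a crop are nearly uniform within themselves and differ from each other in sequence at many places in the genome. In plants, a transcript can be abundant in one inbred line and nearly undetected in another where the gene is missing, altered in sequence or regulated differently. FPKM values do not separate these cases, and a read from a similar gene elsewhere can also leave a small value at a gene. Whether any gene described here has a near-identical copy was not tested.

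Sequencing depth is unknown, because FPKM keeps no read counts. The values summed to between 660268 and 701884 FPKM in the 20G libraries and between 638235 and 685174 FPKM in the 19G libraries. In 19G, replicate 1 stood apart: over the tested loci it correlated at r = 0.906 and 0.886 with the other libraries of its line, which correlated with each other at r = 0.972. The 20G libraries correlated at r = 0.951 to 0.974. The 91 genes held 0.264% to 0.288% of the summed FPKM of a 20G library, against 0.00114% to 0.00161% of that of a 19G library.

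The 20G level of the 91 genes spanned more than 2 orders of magnitude. Their mean over the 20G libraries had a median of 8.81 FPKM, quartiles of 5.59 and 18.8 FPKM, and extremes of 3.19 and 406 FPKM. Means of 100 FPKM or more were found for 2 genes, of 30 to 100 FPKM for 13, of 10 to 30 for 28, of 5 to 10 for 30, and of under 5 FPKM for 18. The gene with the highest level held 21.6% of the summed 20G means of the group, and the highest 3 together held 33.1%. All 16510 RefSeq genes at 3 FPKM or more in every 20G library had a higher median 20G mean, 13.5 FPKM, with quartiles of 7.48 and 29.7 FPKM. Strong thus refers to the limit of 3 FPKM and not to a high rank in 20G.

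**Figure D1:**
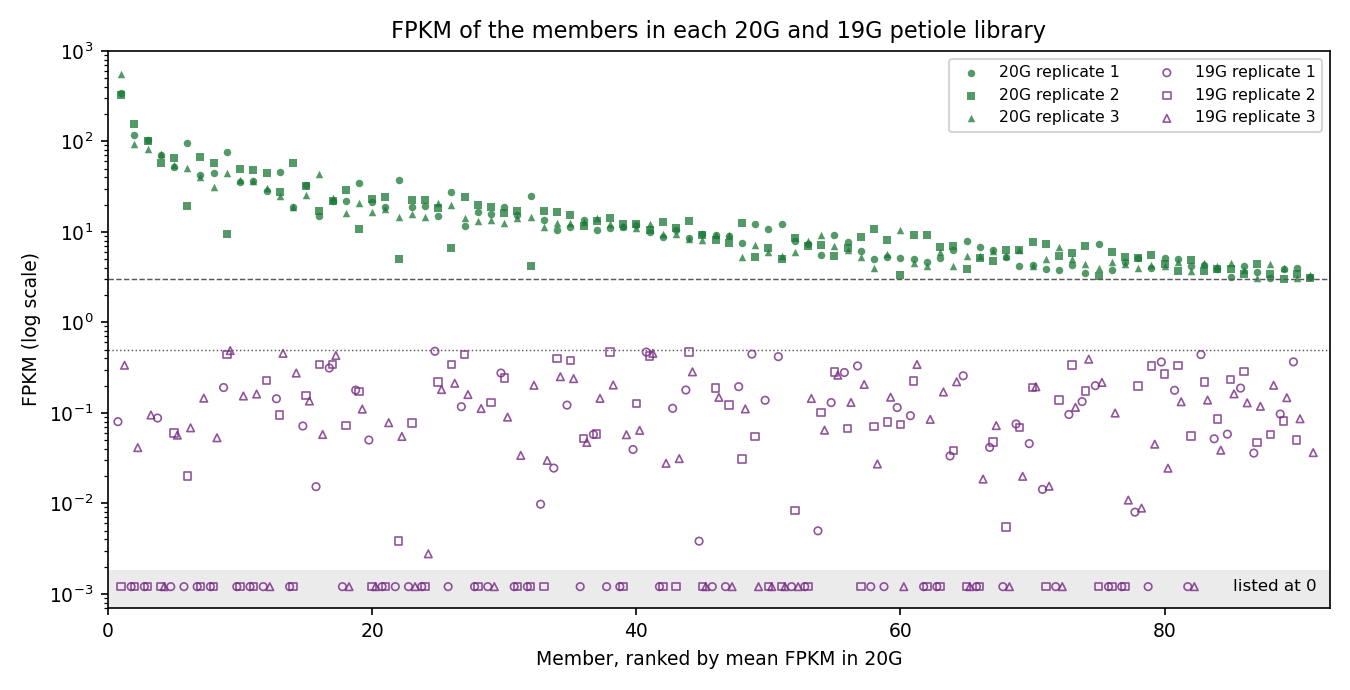
FPKM (log scale) of each of the 91 genes in the 3 libraries of 20G (filled) and the 3 of 19G (open), with genes ranked by their mean in 20G and values of 0 drawn in the grey strip. The dashed line at 3 FPKM and the dotted line at 0.5 FPKM are the limits that chose the genes, so the gap between them is set by the choice, while the 20G means run from 3.19 to 406 FPKM and the 19G values show no matching slope.

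Among the most abundant of these genes, LOC110928594 stood far above the rest in 20G. It was at 344, 320.4 and 555 FPKM in the 20G libraries, against 0.0798, 0 and 0.335 FPKM in the 19G libraries. Each of its 20G values exceeded every value of the next gene in rank. That gene, LOC110928929, was at 117, 154 and 93.0 FPKM in 20G, against 0, 0 and 0.0412 FPKM in 19G. LOC110930897 was at 103, 100.3 and 81.9 FPKM in 20G, against 0, 0 and 0.0946 FPKM in 19G. In LOC110937343 the values were 70.7, 57.0 and 71.8 FPKM in 20G, against 0.0875, 0 and 0 FPKM in 19G. In each of these genes a single 19G library, or a pair of them, carried the whole trace.

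The genes ranked next by 20G level differed in how steady they were. LOC110915194 was at 52.1, 65.2 and 54.7 FPKM in 20G, against 0, 0.0600 and 0.0566 FPKM in 19G. LOC110930389 was at 96.0, 19.2 and 50.2 FPKM in 20G, against 0, 0.0200 and 0.0682 FPKM in 19G. These genes had similar 20G means, 57.3 ± 6.91 and 55.2 ± 38.6 FPKM (SD, n = 3), but LOC110930389 varied 4.99-fold between its highest and lowest 20G library and LOC110915194 varied 1.25-fold. LOC110912912 was at 42.2, 66.7 and 40.1 FPKM in 20G, and LOC110872310 was at 44.5, 57.8 and 31.2 FPKM. Both were listed at 0 in replicates 1 and 2 of 19G, with 0.145 FPKM for LOC110912912 and 0.0530 FPKM for LOC110872310 in replicate 3. LOC110916745 followed the same pattern, at 35.6, 49.9 and 37.2 FPKM in 20G, against 0, 0 and 0.153 FPKM in 19G.

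On the log2(FPKM + 1) scale, which understates the change of low genes, the difference of 20G minus 19G ran from 1.96 to 8.45 over the 91 genes, with a median of 3.07. Over all 28292 tested loci the median was 0.02. All 91 genes passed the filter on low values through their 20G libraries, and all 91 were called higher in 20G by limma. Over all tested loci, 8.44% were called higher in 20G, and over the tested RefSeq genes 6.15% were. The 91 calls follow from the choice of genes and carry no information of their own. The same holds for the absence of overlap between the lines, which was found in this direction in 16% of tested RefSeq genes. With 0.1 in place of 1 as pseudocount the median difference was 5.60, and the value thus depends on the pseudocount.

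The 91 genes form a narrow step in a ladder of 19G levels. Of the RefSeq genes, 16510 reached 3 FPKM in every 20G library. Among these, 15976 (96.8%) exceeded 3 FPKM in at least 1 library of 19G, 277 had a highest 19G value between 1 and 3 FPKM, and 58 had one between 0.5 and 1 FPKM. The trace genes numbered 91, and for 108 genes every 19G library listed a value of 0. In 20G the trace genes and the genes listed at 0 in 19G had like levels, with median means of 8.81 and 8.55 FPKM. The highest means were 406 FPKM for the trace genes and 76.1 FPKM for the genes listed at 0.

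Some genes lay close to the limits on either side. Just inside the lower limit in 20G, LOC110895918 was at 3.85, 3.04 and 3.96 FPKM, and LOC110939582 was at 3.59, 4.44 and 3.05 FPKM. The lowest 20G value of LOC110890613 was 3.05 FPKM as well. Just outside it, LOC110899091 was at 3.58, 2.96 and 2.91 FPKM in 20G, against 0, 0.229 and 0.3998 FPKM in 19G. LOC110908958 was at 3.50, 2.89 and 3.03 FPKM in 20G and LOC110914564 at 6.15, 2.84 and 4.68 FPKM, so that replicate 2 alone kept them out. The genes named at each limit were picked for lying nearest to it, so their like levels on both sides follow from the picking. At the upper limit in 19G, LOC110881189 was kept at 15.0, 18.2 and 20.6 FPKM in 20G, against 0.479, 0.219 and 0.181 FPKM in 19G. LOC118484853 fell outside at 11.3, 10.2 and 9.73 FPKM in 20G, against 0.380, 0.507 and 0.155 FPKM in 19G. LOC110916785 was kept with 0, 0.469 and 0.203 FPKM in 19G, while LOC110873567, with a highest 19G value of 0.501 FPKM, and LOC118488995, with one of 0.513 FPKM, were not. A single 19G library thus kept out each of the 3 genes just beyond this limit.

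The trace in 19G was small and patchy. The highest 19G value of a gene had a median of 0.149 FPKM, and 31 of the 91 genes exceeded 0.1 FPKM in no 19G library. The 19G mean was 0.690% of the 20G mean at the median, under 1% for 54 genes and under 5% for 89. The lowest share, 0.00493%, was that of LOC110873364, which was at 19.2, 22.3 and 14.6 FPKM in 20G and at 0, 0 and 0.00277 FPKM in 19G. The highest share, 6.37%, was that of LOC118479326, at 4.29, 3.69 and 4.52 FPKM in 20G, against 0.440, 0.218 and 0.138 FPKM in 19G.

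The trace was above 0 in all 3 libraries of 19G for 36 genes, in 2 libraries for 19 and in a single library for 36. These were 39.6%, 20.9% and 39.6% of the 91 genes. For all 7366 RefSeq genes at trace in 19G, whatever their 20G level, the split was similar, at 36.4%, 26.04% and 37.5%. Within the 91, replicate 3 of 19G carried the trace most often, in 74 genes (81.3%). Replicate 2 carried it in 58 (63.7%) and replicate 1 in 50 (54.9%). Among all 7366 RefSeq genes at trace in 19G, whatever their 20G level, the shares above 0 were 68.2% in replicate 3, 67.7% in replicate 2 and 63.0% in replicate 1. Of the 36 genes seen in a single 19G library, 21 were seen in replicate 3, 9 in replicate 2 and 6 in replicate 1. Whether these shares differ beyond chance was not tested.

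Genes with a trace in every 19G library included those with the highest 19G means. LOC110904934 was at 9.91, 10.4 and 12.1 FPKM in 20G, against 0.469, 0.426 and 0.454 FPKM in 19G. LOC110941638 was at 21.8, 22.1 and 23.3 FPKM in 20G, against 0.313, 0.342 and 0.429 FPKM in 19G. Both genes were thus nearly even within each line, at levels more than an order of magnitude apart. LOC110908960, with 75.4, 9.41 and 44.2 FPKM in 20G, against 0.190, 0.442 and 0.487 FPKM in 19G, was uneven in 20G.

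The 19G level did not track the 20G level across the genes. Spearman's rho between the means was -0.10 over the 91 genes, which share their libraries and were chosen by limits on both axes. The median 20G mean was 7.04 FPKM for genes with a trace in 3 libraries of 19G, 8.81 FPKM for those with a trace in 2, and 13.1 FPKM for those with a trace in 1. The ranges overlapped, at 3.51 to 43.0 FPKM, 3.62 to 406 FPKM and 3.19 to 121 FPKM.

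**Figure D2:**
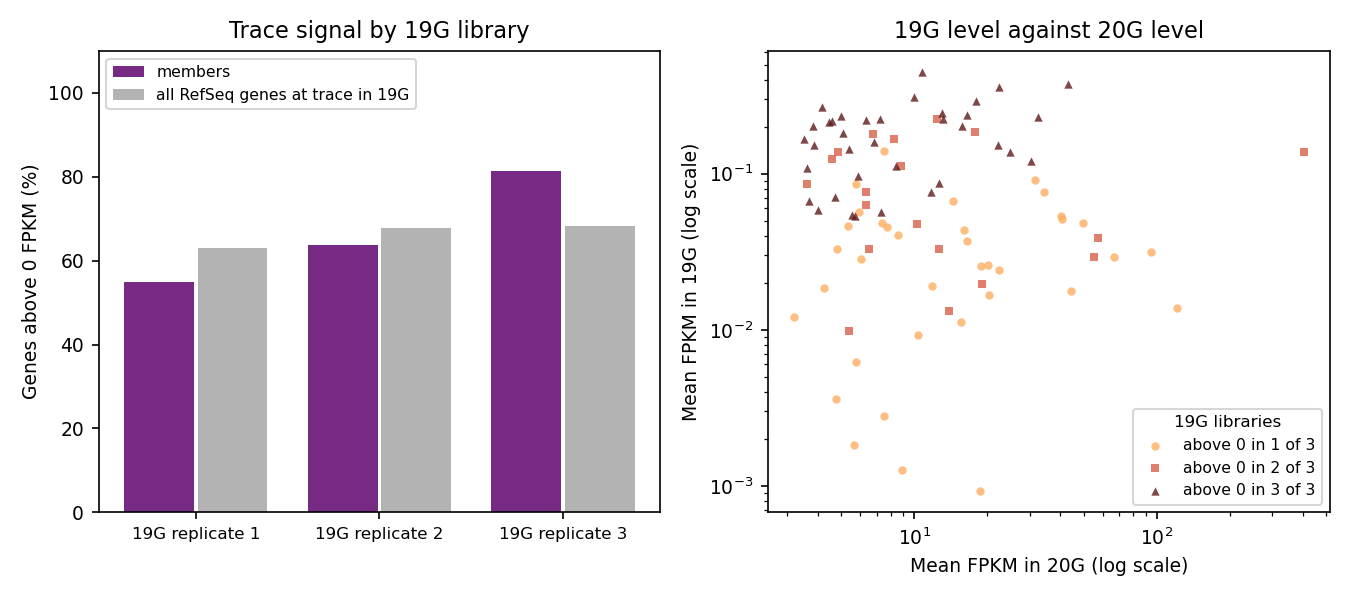
Left, the percentage of the 91 genes (purple) and of all 7366 RefSeq genes at trace in 19G (grey) that were above 0 FPKM in each 19G library; the purple bars stand at 54.9%, 63.7% and 81.3% for replicates 1, 2 and 3. Right, mean FPKM in 19G against mean FPKM in 20G for each of the 91 genes (both log scales), marked by the number of 19G libraries above 0, with no slope visible (rho = -0.10).

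The reverse set, strong in 19G and at trace in 20G by the same limits, held 124 RefSeq genes and had a similar make-up. The level in the expressing line had a median of 8.81 FPKM for the 91 genes strong in 20G and 8.77 FPKM for the 124 genes strong in 19G. The trace was 0.690% and 0.678% of that level at the median. A trace in all 3 libraries of the low line was found in 36 of 91 genes strong in 20G (39.6%) and in 48 of 124 genes strong in 19G (38.7%). The 2 sets were chosen by mirrored limits on the same libraries, so these values are a description.

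Within 20G, most of the 91 genes were steady between libraries and a minority swung widely. The highest 20G library was under 1.5 times the lowest in 51 genes (56.0%) and over 2 times the lowest in 18 genes (19.8%). Among all 16510 RefSeq genes at 3 FPKM or more in every 20G library the shares were 67.0% and 10.8%. Among the 108 genes listed at 0 in 19G they were 52.8% and 12.04%. The steadiest were LOC110941638, at 22.4 ± 0.808 FPKM, LOC110873370, at 4.01 ± 0.179 FPKM, LOC110914962, at 11.8 ± 0.473 FPKM, and LOC110890613, at 3.19 ± 0.135 FPKM in 20G (SD, n = 3).

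The wide swings had a common shape in 10 of the 18 genes, with replicate 1 highest and replicate 2 lowest. Among the 1783 RefSeq genes of the series with an equally wide swing in 20G, 581 (32.6%) had that shape. LOC110908960 swung 8.02-fold. LOC110930270, at 37.8, 4.95 and 14.5 FPKM in 20G, against 0, 0.00382 and 0.0547 FPKM in 19G, swung 7.63-fold. LOC110939663, at 24.8, 4.18 and 14.5 FPKM in 20G, against 0, 0 and 0.201 FPKM in 19G, swung 5.95-fold, and LOC110930389 swung 4.99-fold. In all 4 genes replicate 3 lay between the other libraries of 20G.

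Other wide swings went elsewhere: 6 genes had replicate 2 of 20G as the highest library and 2 had replicate 3. LOC110908715, named after its values were seen, was at 18.7, 57.4 and 18.7 FPKM in 20G. LOC110868151, named in the same way, was at 15.0, 16.8 and 43.0 FPKM in 20G. Over all 91 genes, replicate 2 was the highest 20G library in 47 (51.6%), against 73 of the 108 genes listed at 0 in 19G (67.6%) and 35.3% of the 16510 genes.

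**Figure D3:**
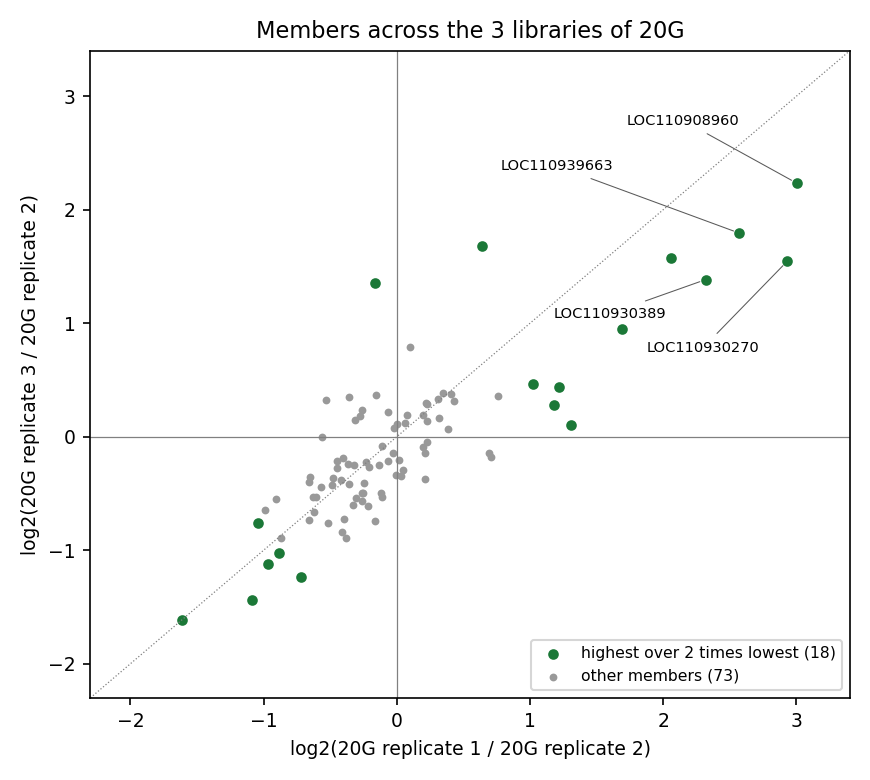
Each point is 1 of the 91 genes, placed by the log2 ratio of 20G replicate 1 to replicate 2 (horizontal) and of 20G replicate 3 to replicate 2 (vertical); the dotted line marks equal ratios. The 18 genes whose highest library is over 2 times the lowest are green, and 10 of them lie to the upper right below the dotted line, where replicate 1 is highest and replicate 2 lowest.

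The library that carried a single trace in 19G and the highest library of 20G had the same number in some genes and not in others. With a trace in replicate 1 of 19G only, 4 of 6 genes had replicate 1 as the highest library of 20G, against 26 of all 91 genes. With a trace in replicate 2 only, 7 of 9 genes had replicate 2 highest in 20G, against 47 of 91. With a trace in replicate 3 only, 2 of 21 genes had replicate 3 highest in 20G, against 18 of 91. The count for replicate 3 thus ran opposite to the others. In 16 of these 21 genes (76.2%) replicate 2 was highest in 20G, a share like that of the genes with a trace in replicate 2 only (77.8%). A high replicate 2 in 20G was thus not particular to genes whose trace lay in replicate 2 of 19G. The 4 genes of the first count were named after their values were seen. LOC110865152 was at 12.3, 4.95 and 5.34 FPKM in 20G, against 0.417, 0 and 0 FPKM in 19G. LOC118491405 was at 7.97, 3.92 and 5.40 FPKM in 20G, against 0.256, 0 and 0 FPKM in 19G. LOC110939414 was at 10.6, 6.58 and 5.97 FPKM in 20G, against 0.138, 0 and 0 FPKM in 19G. In the fourth gene, LOC110899967, the 20G libraries were nearly level at 9.40, 9.29 and 8.06 FPKM. The labels do not say that libraries with the same number share a batch or day.

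All 91 genes could be placed in the gene order of the RefSeq table, which was not used in choosing them. They were spread over all 17 chromosomes, with 2 to 14 on each, and 41 of the 91 lay on the 4 chromosomes that held at least 8. The nearest other gene of the group was a median of 162 genes away. Only LOC110868821 and LOC110868822 lay next to each other, and 13 of the 91 had another within 10 places, in 6 small groups. The same counts were not made for other genes, so no uneven spread is read from them.

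Close to the 91 genes, calls higher in 20G outnumbered calls lower in 20G, and with distance the shares came together. Of 73 tested RefSeq genes that lay next to one of the 91 and were not in the group, 11 (15.1%) were called higher in 20G and 4 (5.48%) lower (limma, with an adjusted p below 0.05 and a change of 1 or more on the log2 scale). At 2 to 5 places, 29 of 289 (10.03%) were called higher and 11 (3.81%) lower. At 6 to 10 places, 19 of 353 (5.38%) were higher and 15 (4.25%) lower, and beyond 10 places 5.68% were higher and 5.45% lower. Over all tested RefSeq genes the shares were 6.15% higher and 5.39% lower. With 1 library left out, the calls higher in 20G numbered 8 to 13 next to the 91 genes, 26 to 33 at 2 to 5 places and 15 to 19 at 6 to 10 places. The next-door count was 13 without 19G replicate 1 and 8 or 9 without any other library, and the next-door calls lower in 20G were 2 without 19G replicate 2. Neighbouring genes are not independent, and no test of this difference was made. An excess of like calls among neighbours in the whole series, known before this comparison, was not measured here.

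**Figure D4:**
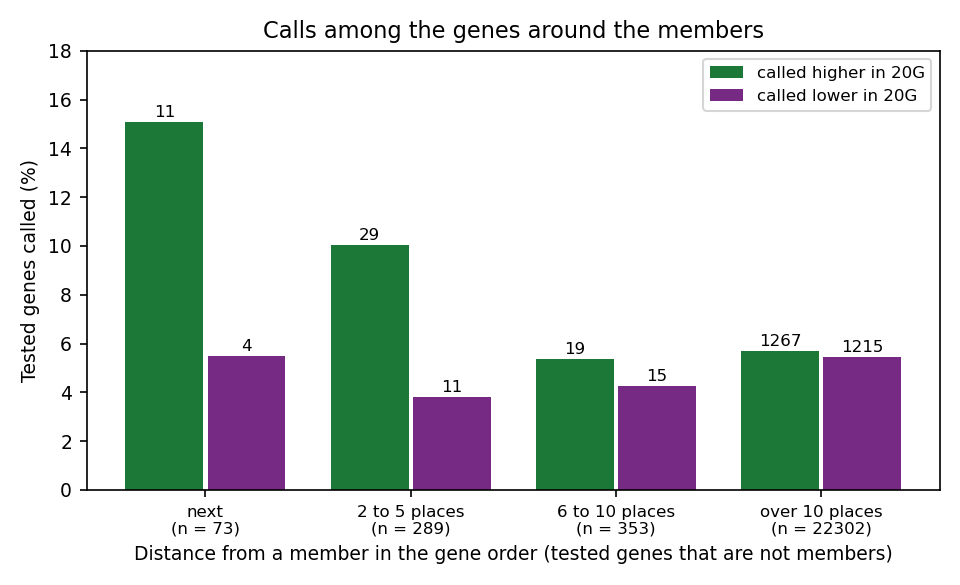
Percentage of tested RefSeq genes outside the group that limma called higher (green) or lower (purple) in 20G, by their distance in the gene order from the nearest of the 91 genes, with the number of calls above each bar and the number tested below. Calls higher in 20G make up 15.1% of next-door genes and 5.38% of genes at 6 to 10 places, while calls lower in 20G range from 3.81% to 5.48%.

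Some next-door genes called higher in 20G were at 0 in 19G. LOC110900774, next to LOC110897775, was at 8.58, 8.72 and 8.07 FPKM in 20G, while every 19G library listed it at 0 (log2 difference 3.24, SE 0.15, limma adjusted p = 1.77e-05). LOC110903370, next to LOC110903358, was at 4.76, 6.24 and 5.13 FPKM in 20G, while every 19G library listed it at 0 (log2 difference 2.67, SE 0.16, limma adjusted p = 2.99e-05). On the other side of LOC110903358, LOC110914436 was expressed in both lines and rose to 98.6, 105 and 81.8 FPKM in 20G, against 40.8, 30.6 and 26.7 FPKM in 19G (log2 difference 1.53, SE 0.21, limma adjusted p = 0.00168). The genes on both sides of LOC110903358 were thus higher in 20G, 1 of them without signal in 19G.

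The 4 next-door genes called lower in 20G gave the opposite picture. LOC110941093, next to LOC110941090, was listed at 0 in all 3 libraries of 20G, against 3.24, 5.78 and 4.17 FPKM in 19G (log2 difference -2.40, SE 0.20, limma adjusted p = 0.000120). LOC110941090 itself was at 8.49, 13.05 and 8.26 FPKM in 20G, against 0.179, 0.469 and 0.283 FPKM in 19G. These adjacent genes thus ran in opposite directions between the lines. LOC110873554, next to LOC110873555, was at 13.98, 2.95 and 7.80 FPKM in 20G, against 37.8, 43.3 and 28.3 FPKM in 19G (log2 difference -2.20, SE 0.47, limma adjusted p = 0.0138, and from 0.00609 to 0.0597 over the alternative fits, where it was lost without 19G replicate 2). LOC110899378, next to LOC110899377, was the smallest of the 4 changes, with a log2 difference of -1.12 (SE 0.21, limma adjusted p = 0.00850), and it lost its call without 19G replicate 2, at -0.90, and with quantile normalization, at -0.98.

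The fourth gene, LOC110899965, lay among genes of the other direction. It was at 0.627, 0.378 and 0.606 FPKM in 20G, against 11.99, 27.4 and 20.8 FPKM in 19G (log2 difference -3.71, SE 0.30, limma adjusted p = 0.000113). On its one side stood LOC110899967, at trace in 19G, and beyond it LOC110899966, at 4.24, 2.74 and 4.62 FPKM in 20G, against 0.0853, 0.0828 and 0.130 FPKM in 19G. LOC110899966 was called higher in 20G (log2 difference 2.12, SE 0.19, limma adjusted p = 0.000181). A little further on the other side stood LOC110899968, at 6.25, 4.71 and 6.12 FPKM in 20G, against 0.0414, 0.0478 and 0.0722 FPKM in 19G. The calls of LOC110899967 and LOC110899968 follow from their choice. Of the tested genes of this stretch outside the group, LOC110899966 was thus called higher in 20G and LOC110899965 lower. The other genes between them were under 1 FPKM in every library and were not tested.

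The only adjacent pair, whose genes were chosen for being higher in 20G, lay between genes that also had more signal in 20G. LOC110868821 was at 45.4, 27.7 and 24.6 FPKM in 20G, against 0.143, 0.0948 and 0.454 FPKM in 19G, and LOC110868822 was at 6.28, 7.03 and 4.20 FPKM in 20G, against 0.0333, 0.0385 and 0.220 FPKM in 19G. In both genes replicate 3 was the lowest of 20G and the highest of 19G. LOC110868823, on one side, was expressed in both lines at 36.2, 9.95 and 22.5 FPKM in 20G, against 2.88, 3.24 and 3.56 FPKM in 19G (log2 difference 2.33, SE 0.42, limma adjusted p = 0.00652). LOC110868820, on the other side, was at 12.8, 7.93 and 16.4 FPKM in 20G, against 6.29, 2.38 and 2.49 FPKM in 19G (log2 difference 1.55, SE 0.38, limma adjusted p = 0.0269). Its call was lost without 19G replicate 2 or 3, without 20G replicate 1 or 3, with no filter and under both other scalings, with an adjusted p from 0.00586 to 0.109 over the alternative fits.

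The largest group joined 3 of the 91 genes, LOC110930393, LOC110930389 and LOC110930270, with far more abundant genes. LOC110930392, between them, was at 393, 102 and 263 FPKM in 20G, against 5.67, 4.44 and 5.53 FPKM in 19G (log2 difference 5.16, SE 0.46, limma adjusted p = 0.000169). LOC110930386 was at 376, 83.9 and 244 FPKM in 20G, against 50.3, 20.7 and 56.2 FPKM in 19G (log2 difference 2.32, SE 0.61, limma adjusted p = 0.0343). Its call was lost in all fits that left out 1 library except the one without 20G replicate 2, and also under both other filters and quantile normalization, and the adjusted p ran from 0.00110 to 0.123 over the alternative fits. LOC110930394, at the edge of the group, was at 636, 132 and 438 FPKM in 20G, against 398, 244 and 505 FPKM in 19G, and was not called (log2 difference -0.14, SE 0.59, limma adjusted p = 0.92). These 3 genes and the neighbouring LOC110930389 and LOC110930270 shared 1 order in 20G, with replicate 1 highest, replicate 3 next and replicate 2 lowest. LOC110930393, at 7.97, 8.61 and 5.96 FPKM in 20G, against 0, 0.00837 and 0 FPKM in 19G, did not share it.

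The remaining groups held abundant genes of both kinds between the trace genes. Between LOC110873370 and LOC110873364 lay LOC110873368, at 96.5, 39.4 and 87.5 FPKM in 20G, against 6.88, 8.97 and 11.1 FPKM in 19G (log2 difference 2.84, SE 0.36, limma adjusted p = 0.00108). Between LOC110912912 and LOC110912689 lay LOC110912750, at 27.1, 17.0 and 20.7 FPKM in 20G, against 6.02, 3.71 and 4.47 FPKM in 19G (log2 difference 1.98, SE 0.24, limma adjusted p = 0.000887). The other expressed genes between these pairs were not called, as with LOC110912742, at 61.7, 93.7 and 65.0 FPKM in 20G, against 85.7, 92.1 and 71.1 FPKM in 19G. Of these, LOC110873371 alone missed the call only on the size of the change. It was at 1.36, 1.15 and 1.04 FPKM in 20G, against 0.386, 0 and 0 FPKM in 19G (log2 difference 0.97, limma adjusted p = 0.00588). Between LOC110906271 and LOC110904934 no gene was called. Genes near absent from 19G thus stood a few places from some genes at like levels in both lines.

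**Figure D5:**
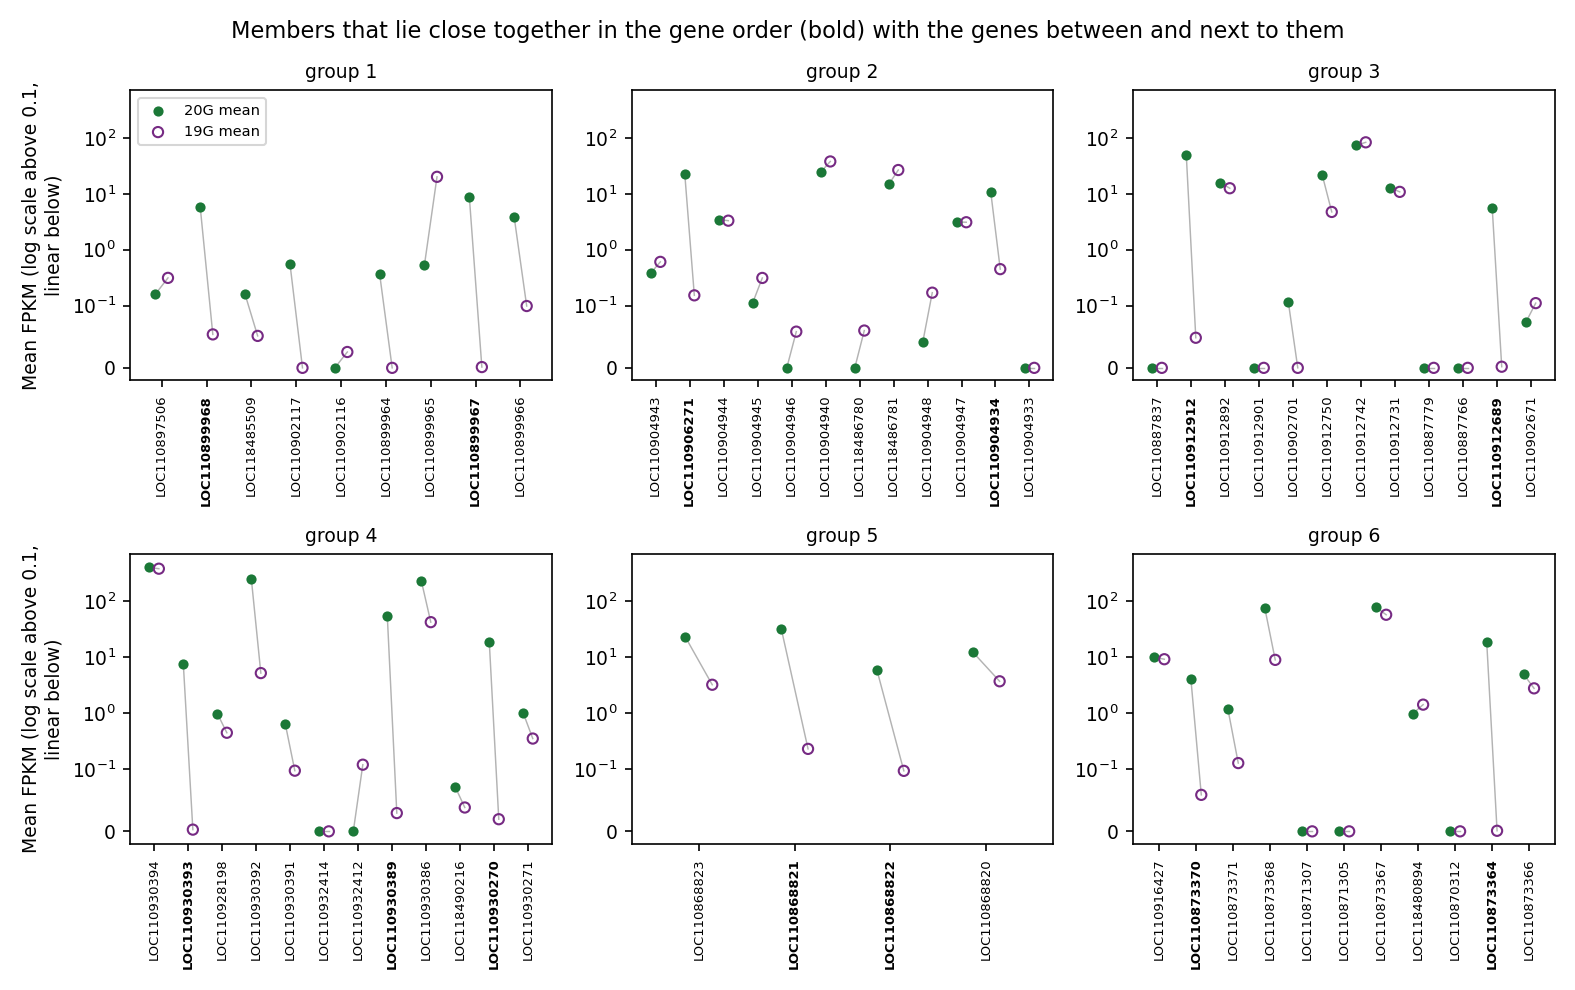
Mean FPKM in 20G (filled) and 19G (open) of consecutive RefSeq genes in the 6 groups where genes of the set (bold names) lie within 10 places of each other, with 1 flanking gene on each side; the vertical axis is logarithmic above 0.1 FPKM and linear below. In group 1 LOC110899965 runs against its neighbours, in group 4 LOC110930392 and LOC110930386 reach means of 253 and 235 FPKM in 20G, and in group 5 the genes flanking the chosen pair also have the higher mean in 20G.

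Of the 91 genes, 37 (40.7%) had no called gene outside the group within 10 places, a share near the 45.0% (7374 of 16391) of the other placed RefSeq genes at 3 FPKM or more in every 20G library. Genes directly beside the most abundant of the 91 could miss the test even where a call lay further off. Next to LOC110928594, LOC110928593 was at 14.5, 13.3 and 12.1 FPKM in 20G, against 14.4, 18.4 and 22.4 FPKM in 19G (log2 difference -0.43, limma adjusted p = 0.22). On its other side LOC110928596 was at 10.02, 6.86 and 8.91 FPKM in 20G, against 8.92, 8.21 and 8.06 FPKM in 19G (log2 difference 0.02, limma adjusted p = 0.97). The gene with the highest 20G level thus lay between 2 genes that were expressed in both lines and did not pass the test. LOC110915194 likewise lay between LOC110915197, at 39.2, 32.4 and 35.7 FPKM in 20G, against 29.0, 43.5 and 39.9 FPKM in 19G, and LOC110915192, at 11.9, 4.89 and 6.20 FPKM in 20G, against 6.36, 5.54 and 5.53 FPKM in 19G. Beside LOC110930897, LOC110930894 missed the call only on the size of the change. It was at 90.5, 84.9 and 93.3 FPKM in 20G, against 225, 168 and 144 FPKM in 19G (log2 difference -0.97, limma adjusted p = 0.0162).

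The wide swing of LOC110908960 within 20G was also seen next to it. LOC110908971 was at 511, 81.9 and 283 FPKM in 20G, against 372, 686 and 366 FPKM in 19G, with the same order of libraries in 20G and no call between the lines (log2 difference -0.99, SE 0.65, limma adjusted p = 0.40). LOC110919031, next to LOC110919030, was at 80.6, 65.8 and 66.0 FPKM in 20G, against 24.8, 2.02 and 0.738 FPKM in 19G (log2 difference 3.80, SE 0.91, limma adjusted p = 0.0238). Replicate 1 of 19G carried most of its 19G signal, as it did for LOC110919030, at 0.445, 0.0550 and 0 FPKM in 19G. Without that replicate the difference was 4.96 with an adjusted p of 7.22e-05, and the call was lost when any other library was left out or with no filter, with an adjusted p of up to 0.0920.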

How the data were processed

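RNA was measured in 6 petiole libraries, 3 of 20G and 3 of 19G, grouped and numbered by their titles. Per the labels' protocols, mRNA was enriched with oligo(dT) beads, fragmented, copied to cDNA, size-selected and amplified by PCR. The authors deposited FPKM, as the labels name the columns. No aligner, assembler, build or filter is named in the sources used here. The members and lists were chosen with earlier results of these data known.

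Low values gave no common step (the fullest bin of the log2 ratio of library pairs, 0.01 wide, under 0.1 FPKM, held 0.919% to 2.09% of loci), so reads were not recovered and no count test was run. Loci at 1 FPKM or more in at least 3 libraries were tested as log2(FPKM + 1) with limma 3.58.1 (R 4.3.3), with a mean-variance trend, all 6 libraries and no covariates, two-sided, with Benjamini-Hochberg adjustment. Called loci have an adjusted p below 0.05 and a change of 1 or more on the log2 scale, as 20G minus 19G. The fit, the choice of genes and the neighbour count were tested on simulated data. Python 3.11.15 was used for the rest.

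Gene order came from the RefSeq table of HanXRQr2.0-SUNRISE, which held all 57126 identifiers, 56957 of them on chromosomes. The files name no build, so no coordinates are given. Genes were named by rule: the 10 highest 20G means, the 4 widest and 4 steadiest in 20G, the 3 highest 19G means, adjacent genes and genes at the limits. Other genes, neighbours included, were named after their values were seen. Parts of the plan that needed product names, proteins or promoters were not used. Alternatives were another pseudocount, other filters and scalings, no trend, a replicate block, each library left out, and other limits for the choice.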

Additional observations from a re-analysis of the deposited data

How the results depend on the processing

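All 91 genes were called higher in 20G in each of the 12 alternative fits that tested them all, and the 269 values of the 21 genes named by rule kept direction and call in the 13 fits run. Both outcomes, and the member calls given below, follow from the limits that chose the genes and carry no information of their own. Testing only loci with a mean of at least 5 FPKM, which tests fewer loci by construction, called 1860 loci (994 higher and 866 lower in 20G) in place of 4849 (2388 and 2461), 44 of 44 tested members, 5 next-door genes higher and 2 lower, 13 higher at 2 to 5 places and 7 at 6 to 10. A pseudocount of 0.1 moved the members' median difference from 3.07 to 5.60. The rule found 58 genes at 5 FPKM or more in 20G and 149 with up to 1 FPKM in 19G, 58 and 91 of them shared with the 91, and with median-of-ratios scaling 89, of which 86 were shared. With 1 library left out it found 87 to 126 genes (126 without 19G replicate 1). Of the 91, only 70 were still found after replicate 3 of 19G was dropped. Dropping replicate 2 of that line kept 82, and dropping replicate 1 kept 85. The genes lost without replicates 3, 2 and 1 were the 21, 9 and 6 whose trace lay in that library only. The choice lost none of the 91 when a 20G library was dropped. That follows from the rule, since fewer libraries then had to reach 3 FPKM. In the fits with 1 library left out, next-door genes numbered 8 to 13 higher and 2 to 5 lower in 20G, with 2 lower without 19G replicate 2. Within 5 genes, 4 members had another member, against 2 as next neighbour. The libraries share only a number: for replicates 1, 2 and 3, deviations from the line means correlated between the lines at 0.24, -0.01 and 0.13, and of the 20G libraries only replicate 1 correlated best with its own number. With the replicate block 5126 loci were called and all 91 members kept their call. Under both other scalings the median difference of all tested loci was 0.01 or nearer to 0. The fits for neighbouring genes were added after the data were seen, as was median-of-ratios scaling of the 20G libraries. That scaling gave 18 genes with a wide swing, not all the same ones, and 50 in place of 47 with replicate 2 highest. LOC118491405, with replicate 1 highest and replicate 2 lowest, dropped out at 1.95-fold, and LOC110879897 came in at 2.07-fold. The count test and the comparison of near-identical proteins were not run. Without read counts, the reads behind a trace value are unknown.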

Other observations

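The same limits applied to the 13716 new loci of the authors, which carry no RefSeq identifier and have no place in the gene order used here, gave 126 loci strong in 20G and at trace in 19G. They are not described further.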
